A study of Mus musculus with 4 samples.

Results

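Cytotoxic CD8 alpha-beta T cells were examined among CD45+ leukocytes of the mouse colon, sorted from total colon tissue of C57BL/6 animals and profiled by droplet single-cell RNA sequencing. Stress and control libraries were compared: stress libraries, from mice restrained daily for 7 days, and control libraries, from mice given the control treatment, with 2 libraries in each group. All mice shared the WT genotype. Whether the libraries of a group came from separate mice or from pools is not stated in the labels, and the p-values therefore reflect the spread among these 4 libraries, which may be technical. The comparison addressed what restraint stress does to colon leukocytes.

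Cells were selected on measured UMIs. A cell counted as a member when it held at least 500 UMIs (unique molecular identifiers, a count of captured RNA molecules), at least 200 genes and at most 10% mitochondrial UMIs, at least 2 UMIs summed over Cd3e, Cd3d and Cd3g, at most 1 over Cd79a and Cd79b, at least 1 of Cd8b1, 0 of Cd4 and Trdc, and at least 2 summed over Ccl5, Gzma and Gzmb. This rule took 339 of 20428 kept cells. They were 159 of 8319 cells in stress library 1, 86 of 4127 in stress library 2, 25 of 2546 in control library 1 and 69 of 5436 in control library 2. The genes of the rule chose the cells, so their levels are given as a description with no test.

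Cytotoxic CD8 T cells recognise peptides on MHC class I molecules through an alpha-beta T cell receptor, with CD8 as co-receptor. They kill infected or altered cells by releasing granules that hold perforin and granzymes, or through Fas ligand on their surface. In the gut many of them stay in the tissue and the epithelium as resident memory or intraepithelial cells, held by integrins such as CD103, while naive and central memory cells circulate through lymph nodes with the help of CCR7.

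The member cells of the 4 libraries held 417025, 489054, 114283 and 386994 UMIs in stress 1, stress 2, control 1 and control 2, with medians of 2528, 5171, 3824 and 5348 UMIs per cell. Stress library 1 was thus the shallowest per cell, and control library 1 had the fewest members. Between 3 and 19 barcodes were shared by each pair of libraries, none of them a member in both. Scrublet scored 3, 6, 1 and 6 members of these libraries as likely doublets, and they were kept in the main results.

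The markers bore out the label in part. Cd8a, the other chain of the co-receptor and no part of the rule, had a UMI in 77.4% and 88.4% of members in stress libraries 1 and 2, against 76.0% and 73.9% in control libraries 1 and 2. Nkg7, a granule membrane protein of killer cells, had one in 95.6% and 95.3%, against 100% and 94.2%. CD8 cells with no UMI of Ccl5, Gzma or Gzmb carried both genes as well. Their Nkg7 averaged 486.2 CPM (a gene's UMIs scaled to a common library total) over the 4 libraries, against 1575 CPM in members. Their Cd8a was at 457.6 and 459.9 CPM in stress libraries 1 and 2, against 289.1 and 278.0 CPM in control libraries 1 and 2. The share of those cells with a UMI is not given here, so the percentages do not set members apart from them. The constant gene of the alpha chain, Trac, was seen in 112 of 159 and 79 of 86 members of the stress libraries, against 22 of 25 and 61 of 69 of the control libraries. Ncr1, the defining receptor of NK cells and ILC1, was at 0 in every library, and Foxp3 gave at most 5 UMIs in any library. Other genes of the NK and regulatory T cell lists were present, as given below. Control library 2 stood apart: the members' median of UMIs summed over Ccl5, Gzma and Gzmb was 55 and 94.5 in stress libraries 1 and 2, against 36 and 17 in control libraries 1 and 2. Ribosomal protein genes took 25.1% and 26.5% of the members' UMIs under stress, against 26.1% and 35.4% in controls.

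Markers of other cell types were present in the summed members and moved with the libraries. The 11 plasma cell genes summed to 10270 and 3049 CPM in stress libraries 1 and 2, against 13010 and 387.6 in control libraries 1 and 2. The 14 B cell genes summed to 6546 and 2075 CPM, against 12390 and 1124, and the 10 dendritic cell genes to 350.1 and 355.8 CPM, against 3903 and 907. Part of this RNA sat in a few cells: 1, 3, 1 and 0 members of stress 1, stress 2, control 1 and control 2 gave over 2% of their UMIs to Igha, Igkc and Jchain, with a maximum of 42.4% in stress library 1 and 20.5% in control library 1, while the median member gave at most 0.225%. Dcn, Col1a1 and Col3a1 of fibroblasts were at 0. Of the 11 NK and ILC1 genes, 3 were at 0 in every library. That list summed to 105.5 and 531.6 CPM in stress libraries 1 and 2, against 595.0 and 328.2 CPM in control libraries 1 and 2. The 10 CD4 and regulatory T cell genes summed to 762.5 and 891.5 CPM, against 621.3 and 550.4 CPM.

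Members made up a larger share of all kept leukocytes in the stress libraries, but not of CD8 cells throughout. Their share of kept cells was 1.91% (95% Clopper-Pearson interval 1.63 to 2.23) and 2.08% (1.67 to 2.57) in stress libraries 1 and 2, against 0.982% (0.636 to 1.45) and 1.27% (0.989 to 1.6) in control libraries 1 and 2. The groups did not overlap, and the means were 2.0% ± 0.122 and 1.13% ± 0.203 (SD, n = 2 each). The two-sided exact permutation p was 0.333, the smallest that 2 against 2 libraries allow, so the test could not pass. The effector genes of the rule enter this share as well, and nothing is drawn from the test. With every cell thinned to 1000 UMIs before the rule was applied the means were 1.07% under stress and 0.346% in controls. These intervals cover counting error only, and a share of a sorted mixture also depends on how many other leukocytes were recovered.

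Within CD8 alpha-beta T cells, taken by the same rule without the effector criterion, the order of the libraries was different. Members were 159 of 267 (59.6%) and 86 of 121 (71.1%) in stress libraries 1 and 2, against 25 of 41 (61.0%) and 69 of 474 (14.6%) in control libraries 1 and 2. Control library 1 lay between the stress libraries, and control library 2 lay far below the rest. The means were 65.3% ± 8.15 and 37.8% ± 32.8 (SD, n = 2 each), with a two-sided exact permutation p of 0.667. The effector genes that divide these cells are in the rule, so nothing is drawn from this test. Without control library 2 the difference shrank to 4.34 percentage points, against 27.5 with it. CD8 cells with no UMI of Ccl5, Gzma or Gzmb numbered 106 and 30 in stress libraries 1 and 2, against 16 and 383 in control libraries 1 and 2.

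**Figure D1:**
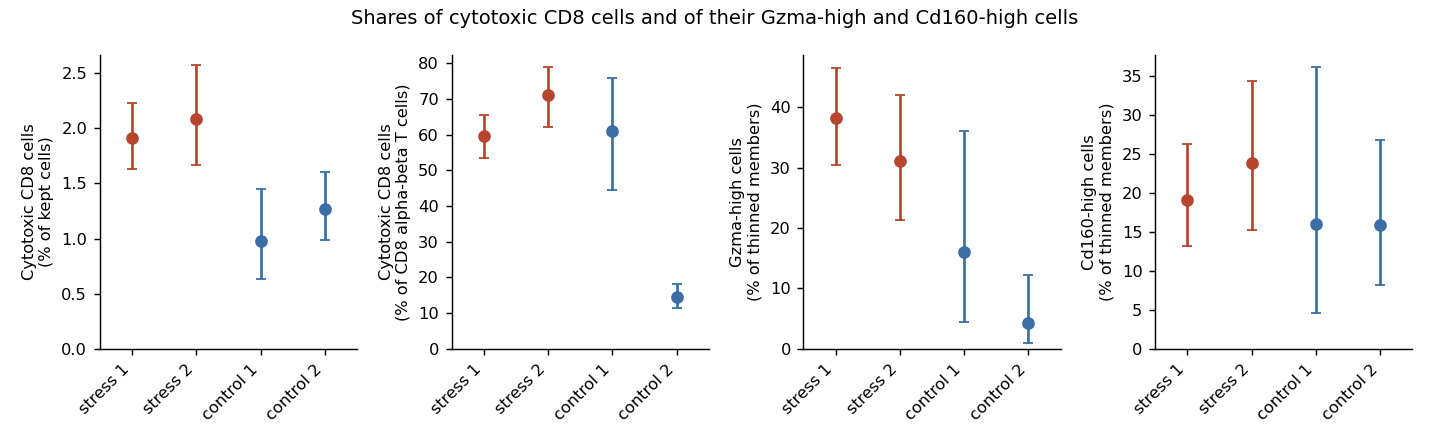
Each point is a library (stress left of control) and each bar a 95% Clopper-Pearson interval. The panels show members as a share of kept cells and of CD8 alpha-beta T cells, and the Gzma-high and Cd160-high shares of members thinned to 1000 UMIs, all in %. The points of stress and control libraries separate for the share of kept cells (2.0% against 1.13% on average) and for Gzma-high cells (34.6% against 10.2%). For Gzma-high cells the intervals of stress 2 (21.3 to 42.0) and control 1 (4.54 to 36.1) overlap. The Cd160-high points also separate, in an order that other settings did not keep. Control 1 lies between the stress libraries for the share of CD8 cells.

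The effector criterion fell in a sparse zone of the distribution. Of the 903 CD8 alpha-beta T cells, 535 had no UMI of Ccl5, Gzma or Gzmb, 29 had 1 and stayed just outside, 16 had 2 and were just inside, and 171 had 50 or more. Among members of stress library 1, Ccr7 was at 954.4 CPM in the 4 cells with 2 effector UMIs and at 4.419 CPM in the 86 cells with 50 or more. In stress library 2 the matching values were 561.8 CPM in 4 cells and 29.06 CPM in 59 cells. They were 241.3 CPM in 2 cells and 235.3 CPM in 11 cells of control library 1, and 975.5 CPM in 6 cells and 52.92 CPM in 15 cells of control library 2. CD8 cells with no effector UMI had 460.8 and 550.5 CPM in stress libraries 1 and 2, against 509.3 and 910.7 CPM in control libraries 1 and 2. Ccr7 in the few cells just inside the threshold was thus above that of cells with none in 3 libraries and below it in control library 1. Control library 2 had 6 members with 2 effector UMIs, 9 with 3 to 4 and 13 with 5 to 9, of 69.

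The 3 effector genes of the rule were highest in the stress libraries. Ccl5, a chemokine kept ready as RNA in memory CD8 cells (chromosome 11, 83525778 to 83530518, GRCm38), was at 20850 and 18200 CPM in stress libraries 1 and 2, against 12460 and 7036 CPM in control libraries 1 and 2. Gzma, the tryptase granzyme A (chromosome 13, 113093825 to 113100981), was at 5545 and 4584 CPM, against 2979 and 887.7 CPM. Gzmb, the caspase-activating granzyme B (chromosome 14, 56258838 to 56262260), was at 2739 and 2724 CPM, against 2220 and 890.7 CPM. Control library 2 was lowest in each. These genes chose the cells, so the order of the libraries is a description. Cd8b1, the co-receptor's beta chain (chromosome 6, 71322788 to 71337494), was at 1113 and 795.6 CPM, against 785.8 and 789.1 CPM, with stress 2 close to the controls.

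Gzma split the members into a large negative and a smaller, strongly positive part. To set libraries of unequal depth side by side, each member was thinned to 1000 UMIs, which left 330 of 339 cells (9 shallower members, 7 of stress 1 and 2 of stress 2, were left out), and cells with at least 2 Gzma UMIs were called Gzma-high. Of the 330, 221 had none, 18 had 1, 13 had 2, 16 had 3 to 5 and 62 had 6 or more. Gzma-high cells were 58 of 152 (38.2%, interval 30.4 to 46.4) and 26 of 84 (31.0%, 21.3 to 42.0) in stress libraries 1 and 2, against 4 of 25 (16.0%, 4.54 to 36.1) and 3 of 69 (4.35%, 0.906 to 12.2) in control libraries 1 and 2. The fractions did not overlap, with means of 34.6% ± 5.1 and 10.2% ± 8.24 (SD, n = 2 each), and no test was run because Gzma is in the rule. Unthinned, the means were 42.4% and 15.6%. As a guide to free RNA, at least 1 thinned Gzma UMI was seen in 1.36% and 1.22% of B cells in stress libraries 1 and 2, against 0.289% and 0.0737% in control libraries 1 and 2 (median depths 2075, 4146.5, 2344 and 2413.5 UMIs). Such a UMI was seen in 44.1% and 38.1% of members under stress, against 24.0% and 5.8% in controls. Members were admitted partly by their Gzma UMIs, so the 2 cell types cannot be compared directly. The part of free RNA in the Gzma-high fractions was not tested.

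Gzmb went with Gzma inside every library. A Gzmb UMI was seen in 82.8% and 88.5% of Gzma-high members of stress libraries 1 and 2, against 35.1% and 32.8% of their Gzma-low members. In control libraries 1 and 2 it was seen in 75.0% and 33.3% of Gzma-high members, which were 4 and 3 cells, against 14.3% and 6.06% of Gzma-low members. Both granzymes belong to the rule, so this is a description.

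Cd160, a receptor for HVEM (herpesvirus entry mediator) found on NK cells and intestinal intraepithelial T cells (chromosome 3, 96798763 to 96829351), was spread more evenly. Members with at least 1 Cd160 UMI after thinning were 29 of 152 (19.1%) and 20 of 84 (23.8%) in stress libraries 1 and 2, against 4 of 25 (16.0%) and 11 of 69 (15.9%) in control libraries 1 and 2. The stress fractions were the higher ones, 21.4% ± 3.35 against 16.0% ± 0.041 (SD, n = 2 each, two-sided exact permutation p = 0.333, the smallest possible). That order did not hold under other settings: the difference of 5.47 percentage points was -0.962 with at least 2 Cd160 UMIs and -0.531 after thinning to 500 UMIs. In B cells the thinned share with a Cd160 UMI was at most 0.0505% in any library. Summed over members, Cd160 was at 301.9 and 302.0 CPM under stress, against 265.0 and 233.1 CPM in controls.

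Gzma-high and Cd160-high cells overlapped only partly. Of the 330 thinned members, 19 were high for both, 72 for Gzma alone, 45 for Cd160 alone and 194 for neither. Among Gzma-high cells, 22.4% and 11.5% were Cd160-high in stress libraries 1 and 2, against 17.0% and 29.3% of Gzma-low cells. The order of these shares was thus opposite in the 2 stress libraries. In control libraries 1 and 2 the Cd160-high cells were 1 of 4 and 2 of 3 Gzma-high cells, against 14.3% and 13.6% of Gzma-low cells.

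Gene expression in the members was then compared between stress and control, on UMIs summed per library. In such sums, fewer expressing cells and less RNA per cell cannot be told apart. With 2 libraries a group, values that do not overlap between groups have an exact permutation p of 0.333. The share of all tested genes without such overlap is not given here, so lack of overlap alone is only a description. CPM values from here on are scaled by the TMM factors of each comparison. Of 4826 genes tested outside the rule, 6 passed edgeR's quasi-likelihood test at a Benjamini-Hochberg adjusted p under 0.05 (0.124% of genes), 2 higher (0.0414%) and 4 lower (0.0829%) under stress, and 383 had an unadjusted p under 0.05. DESeq2 called 1 of them, Ccr7. The 2 higher genes were Fasl and Iglc1, and the 4 lower ones were Ccr7, Rgcc, Odc1 and Hes1.

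Fasl, the death ligand through which cytotoxic cells trigger Fas on their targets (chromosome 1, 161780689 to 161788495), was at 207.0 and 166.6 CPM in stress libraries 1 and 2, against 73.09 and 35.87 CPM in control libraries 1 and 2. Every stress library lay above every control library. The log2 fold change was 1.99 (SE 0.367, edgeR adjusted p = 0.0453). Leaving out a library sets 2 libraries against 1, and the lone library is then assumed to vary like the other group's pair. The call was lost without stress library 1 (adjusted p = 0.212), without control library 2 (0.156), and among Gzma-low members alone (log2 1.67, adjusted p = 0.115).

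Ccr7, the receptor that guides T cells into lymph nodes (chromosome 11, 99144196 to 99155077), was at 68.18 and 74.98 CPM in stress libraries 1 and 2, against 246.7 and 555.9 CPM in control libraries 1 and 2. The log2 fold change was -2.56 (SE 0.336, edgeR adjusted p = 0.00517), and both stress libraries lay below both control libraries. After thinning, a Ccr7 UMI was seen in 5 of 152 and 3 of 84 members under stress, against 2 of 25 and 21 of 69 in controls. Among Gzma-low members alone the log2 fold change was -2.13 (adjusted p = 0.00516). Without control library 2 it was -1.77 (adjusted p = 0.000575), with the spread taken from the stress libraries alone and with control library 1 as the only control. Ccr7 is also a gene of mature dendritic cells and of B cells, and a thinned Ccr7 UMI was seen in 29.1% and 17.0% of B cells in stress libraries 1 and 2, against 36.1% and 46.4% in control libraries 1 and 2, whose part in the result was not tested. In control library 1, 13 of its 27 Ccr7 UMIs lay in 1 member that gave over 1% of its UMIs to the MHC class II genes Cd74, H2-Aa and H2-Ab1. Without the 3 such members, found in stress 1, control 1 and control 2, the log2 fold change was -2.48 but no longer passed (adjusted p = 0.248), and 2 genes were called in all, Iglc1 and Rgcc.

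Rgcc, a regulator of cell cycle progression, was at 65.75 and 106.2 CPM in stress libraries 1 and 2, against 411.1 and 275.0 CPM in control libraries 1 and 2. The groups did not overlap, and the log2 fold change was -1.92 (SE 0.302, edgeR adjusted p = 0.0116). Without stress library 1 its adjusted p was 0.0636. Odc1, ornithine decarboxylase, the entry enzyme of polyamine synthesis, was at 148.5 and 154.1 CPM, against 310.6 and 448.3 CPM. Its log2 fold change was -1.36 (SE 0.256, edgeR adjusted p = 0.0453), and the call was lost without stress 1 (0.29), stress 2 (0.352) or control 2 (0.0796). Hes1, a transcriptional repressor and target of Notch, was low throughout, at 7.305 and 4.165 CPM, against 27.41 and 101.6 CPM. That rested on 5 UMIs under stress, against 37 in controls (log2 -3.74, edgeR adjusted p = 0.0195). Of the 37, 34 lay in control library 2, and without that library Hes1 had too few UMIs to be tested.

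Iglc1, an immunoglobulin lambda constant gene that T cells do not use, was at 92.53 and 133.3 CPM in stress libraries 1 and 2, against 9.137 and 5.978 CPM in control libraries 1 and 2. The stress members held 102 UMIs against 3 in the control members, a ratio of 18.8 (95% counting interval 6.26 to 92.7, edgeR adjusted p = 0.00517). Its reads may be exchanged with near-identical lambda constant genes. It is among the plasma cell genes, whose sums by library are given above. Without the 5 members over 2% immunoglobulin UMIs its log2 fold change was 3.86 (edgeR adjusted p = 0.00926). In that setting 8 genes passed, 5 higher and 3 lower, among them Fasl, Iglc1, Ccr7 and Rgcc, while Odc1 missed the threshold (adjusted p = 0.0509) and Hes1 had too few UMIs to be tested.

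**Figure D2:**
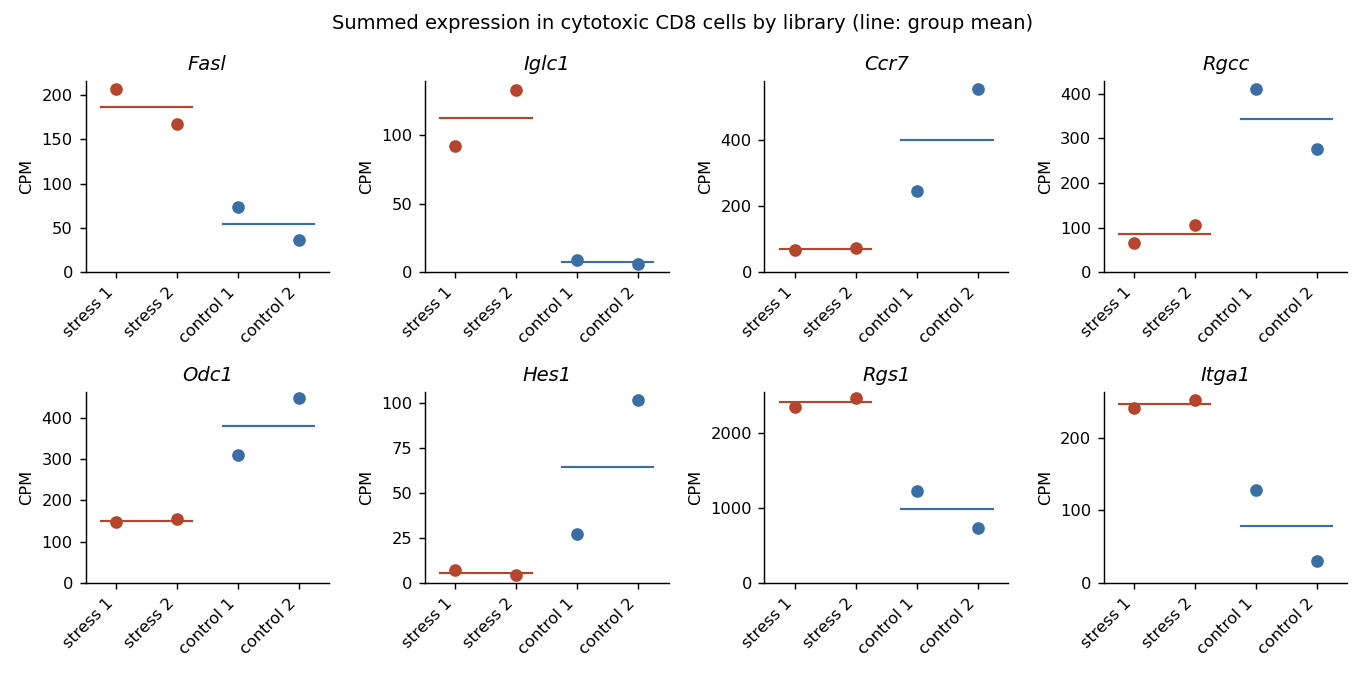
Summed expression of the members in each library, in TMM-scaled CPM on a linear axis from 0, with stress left of control and a line at each group's mean. Fasl and Iglc1 passed as higher and Ccr7, Rgcc, Odc1 and Hes1 as lower under stress. Rgs1 and Itga1 also show no overlap between groups but did not pass (adjusted p = 0.166 each).

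Tissue residency and gut homing genes leaned upward under stress without passing. Of 22 tested, none passed edgeR's adjusted threshold, 11 had an unadjusted p under 0.05, and 20 had a positive log2 fold change, with a median of 0.77 against 0.0042 over all genes tested. Itga1, the collagen-binding integrin alpha chain CD49a of resident cells, was at 241.1 and 252.0 CPM under stress, against 127.9 and 29.89 CPM in controls (log2 2.05, SE 0.448, edgeR adjusted p = 0.166). Rgs1, a brake on chemokine receptor signalling, was at 2345 and 2458 CPM, against 1224 and 732.3 CPM (log2 1.31, SE 0.312, edgeR adjusted p = 0.166). For both, each stress library lay above each control library. Itgb1, the beta chain that pairs with Itga1, lay on the opposite side at 82.79 and 60.4 CPM, against 228.4 and 155.4 CPM (log2 -1.35, edgeR adjusted p = 0.166). These values depended on the control libraries. Without control library 2 the log2 fold change was 0.95 for Itga1 (adjusted p = 0.274), 0.98 for Rgs1 (0.00171) and -1.67 for Itgb1 (0.00253), and the list's median was 0.33, with 17 of 23 genes positive and 1 called higher and 2 lower. Without control library 1 it was 3.01 for Itga1, 1.69 for Rgs1 and -1.15 for Itgb1 and all 3 passed, in a fit against 1 control library that called 300 genes.

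Circulation and early memory genes leaned the other way, but not without control library 2. Of 17 tested, Ccr7 alone passed, 1 had a positive fold change, and the median was -0.53. Without control library 2, 8 of 17 were positive and the median was -0.04, against 0.04 over all genes tested there. Bach2, a repressor that keeps T cells from effector fate, was at 19.48 and 18.74 CPM in stress libraries 1 and 2, against 36.55 and 65.75 CPM in control libraries 1 and 2, without passing (edgeR adjusted p = 0.265). Control library 2, whose members had the weakest effector signal, was the highest library for Ccr7 and Bach2. Among members with at least 5 effector UMIs, Ccr7 was the gene that passed of 4492 (log2 -3.44, adjusted p = 0.00936).

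The killing genes outside the rule gave 1 call. Of 14 cytotoxic granule and killing genes tested, Fasl passed and 9 had a positive fold change (median 0.27). Gzmk, granzyme K, was at 228.9 and 137.5 CPM in stress libraries 1 and 2, against 127.9 and 47.82 CPM in control libraries 1 and 2 (log2 1.32, SE 0.415, edgeR adjusted p = 0.348). Stress 2 and control 1 were close. Of 14 NK receptor genes tested none passed edgeR, 3 had an unadjusted p under 0.05, and 11 were positive. Cd226, the activating receptor DNAM-1, was at 163.1 and 114.5 CPM, against 45.68 and 53.8 CPM (log2 1.42, edgeR adjusted p = 0.177). Of 13 inhibitory and costimulatory receptor genes, none passed edgeR and 2 had an unadjusted p under 0.05. Ctla4, the inhibitory receptor for CD80 and CD86, was at 530.8 and 383.2 CPM, against 255.8 and 254.1 CPM (log2 0.84, edgeR adjusted p = 0.280).

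Genes of activation, cytokine signalling and stress hormones did not pass either. Of 22 immediate early and AP-1 genes, none passed edgeR, 7 had an unadjusted p under 0.05, and 6 were positive (median -0.25). Nfkbia, the feedback inhibitor of NF-kB, was at 786.5 and 864.3 CPM in stress libraries 1 and 2, against 1462 and 1964 CPM in control libraries 1 and 2 (log2 -1.06, SE 0.283, edgeR adjusted p = 0.196). Its groups did not overlap. Of 15 genes of the glucocorticoid receptor and its targets, none passed edgeR, 1 had an unadjusted p under 0.05 and 7 were positive (median -0.25, against 0.25 without control library 2). Txnip, a glucocorticoid-inducible inhibitor of thioredoxin, was at 392.0 and 389.5 CPM, against 310.6 and 292.9 CPM (edgeR adjusted p = 0.729). Of 16 adrenergic and neuropeptide receptor genes only 2 had enough UMIs to be tested. None of 19 interferon gamma response genes passed edgeR, and 2 had an unadjusted p under 0.05. Ifng itself had a thinned UMI in 19.1% and 11.9% of members under stress, against 28.0% and 15.9% in controls, with overlapping groups. Genes of the type I interferon response (18 tested), MHC class I presentation (19), the cell cycle (12), heat shock (11) and T cell receptor signalling (20) gave no call with edgeR, and 1, 0, 1, 1 and 2 of them, in this order, had an unadjusted p under 0.05.

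The Gzma-high members differed from the Gzma-low members of the same libraries beyond the granzymes. The split was made on Gzma in these same cells, so genes that go along with Gzma are found by construction, and the comparison describes the 2 classes. Of 1849 genes tested outside the rule, with the library as a block, 64 passed edgeR (3.46%), 11 higher (0.595%) and 53 lower (2.87%) in Gzma-high cells. The control libraries gave only 4 and 3 Gzma-high cells, and the count was 3 without stress library 1, 19 without stress library 2 and 9 without control library 1. Within the stress libraries alone 196 genes passed, among them all of the 64.

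Genes of tissue residency and effector function were among the 11 higher ones. Itgae, the CD103 chain that binds E-cadherin on epithelium (chromosome 11, 73090583 to 73147446), was at 645.4 and 429.9 CPM in Gzma-high cells of stress libraries 1 and 2, against 95.46 and 226.9 CPM in their Gzma-low cells. In control libraries 1 and 2 it was at 535.0 and 630.2 CPM in Gzma-high cells, against 180.4 and 74.33 CPM in Gzma-low cells. It was higher in 4 of 4 libraries, with no overlap between classes (log2 1.98, SE 0.396, edgeR adjusted p = 0.0229). Of 16 residency genes tested, 4 passed as higher (Itgae, Itga1 and Rgs1 among them) and none as lower.

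Granzyme K and a chemokine moved the same way. Gzmk was at 542.1 and 286.6 CPM in Gzma-high cells of stress libraries 1 and 2, against 140.9 and 118.7 CPM in Gzma-low cells, and at 802.5 and 441.1 CPM against 25.77 and 33.45 CPM in control libraries 1 and 2 (log2 2.33, SE 0.469, edgeR adjusted p = 0.0233). Ccl4, a chemokine released by activated CD8 cells, was at 3149 and 1200 CPM in Gzma-high cells of the stress libraries, against 481.9 and 171.0 CPM in Gzma-low cells (log2 2.95, SE 0.542, edgeR adjusted p = 0.0314). Both were higher in 4 of 4 libraries. Other higher genes were Lgals3, a galectin (log2 1.77), Gngt2, a G protein gamma subunit (1.93), Fgl2, a fibrinogen-like immunoregulator (1.49), Itm2b (0.94) and the long noncoding RNA Neat1 (1.33). Of the 11, Ccl4 alone still passed without control library 1 (Itgae adjusted p = 0.0964), and none passed without stress library 1 (Itgae adjusted p = 0.211). Without stress library 2 Ccl4 did not pass (adjusted p = 0.0755).

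Genes of circulating and early memory cells were low in the Gzma-high class. Of 11 tested, 6 passed as lower (Ccr7, Cd27, Il7r, Klf3, Ly6c2 and Tcf7) and none as higher, with a median log2 fold change of -1.77 against -0.02 over all genes. Ccr7 had 0 UMIs in the Gzma-high cells of all 4 libraries, against 276 in the Gzma-low cells (edgeR adjusted p = 0.014). In the pooled sums that was at least 25.9-fold lower when 3 counts over the group are set as the floor. The pooled fold is no bound for the difference within a library. Control library 2 held 186 of the members' Ccr7 UMIs but only 3 Gzma-high cells. Ly6c2, a surface protein of circulating memory CD8 cells, was at 86.05 and 35.82 CPM in Gzma-high cells of stress libraries 1 and 2, against 372.8 and 502.6 CPM in Gzma-low cells, and had no UMI in Gzma-high cells of the control libraries, against 347.8 and 780.5 CPM (log2 -3.17, SE 0.488, edgeR adjusted p = 0.0136). Il7r, the interleukin 7 receptor that sustains memory cells, was at 232.3 and 214.9 CPM, against 736.4 and 502.6 CPM in the stress libraries (log2 -1.54, SE 0.312, edgeR adjusted p = 0.0237). The Il7r call was lost without stress library 1 (adjusted p = 0.259), stress library 2 (0.066) or control library 1 (0.0835), and that of Ccr7 without stress library 1 (0.0698). Ly6c2 passed without each library in turn.

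**Figure D3:**
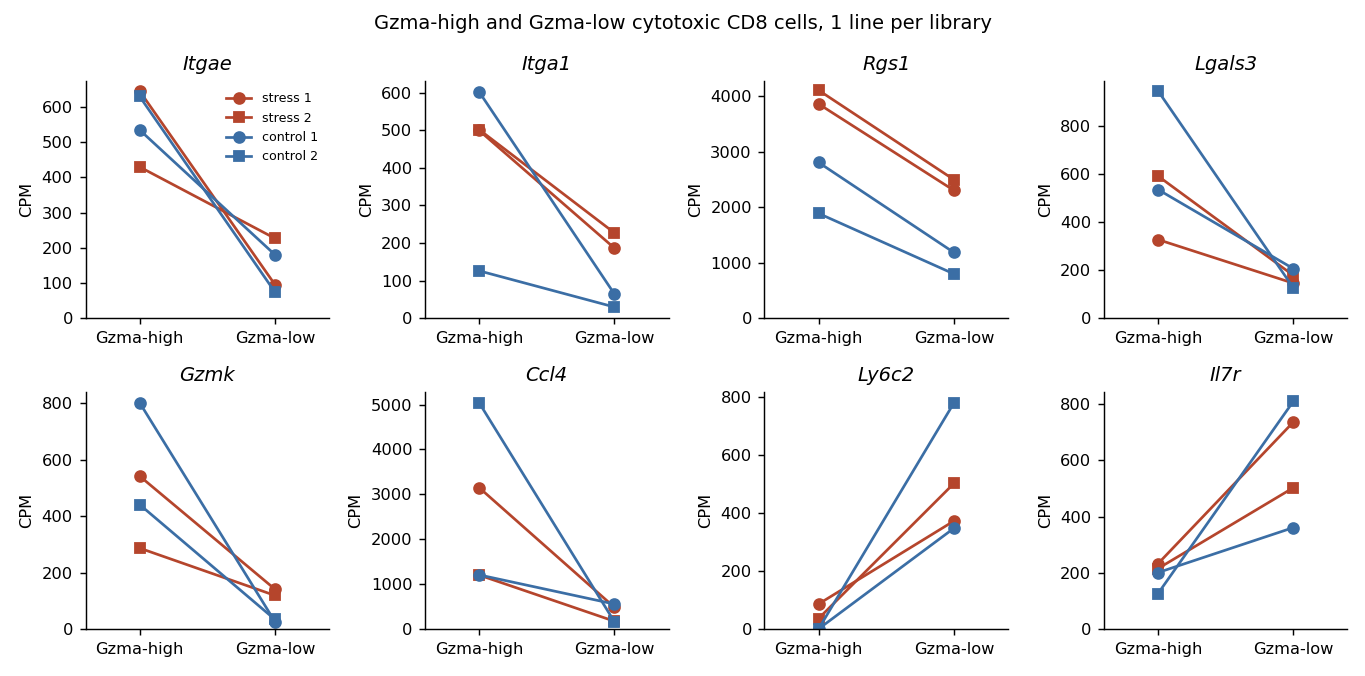
Expression of 8 genes in Gzma-high (left) and Gzma-low (right) members of each library, in TMM-scaled CPM on linear axes from 0, with stress in red, control in blue and circles and squares for replicates 1 and 2. Itgae, Itga1, Rgs1, Lgals3, Gzmk and Ccl4 slope down to the Gzma-low cells and Ly6c2 and Il7r slope up, in all 4 libraries. The Gzma-high points of the control libraries rest on 4 and 3 cells.

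Ribosomal protein genes, a group chosen after the calls were seen, were also lower in Gzma-high cells. Of 80 tested, 39 passed as lower and none as higher, with a median of -0.61. Rps20, a small subunit protein, was at 2788 and 2893 CPM in Gzma-high cells of stress libraries 1 and 2, against 5628 and 6067 CPM in Gzma-low cells (log2 -1.15, SE 0.138, edgeR adjusted p = 0.00296). Between stress and control none of 81 such genes passed edgeR, 2 had an unadjusted p under 0.05, and 4 had a positive fold change (median -0.35).

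The Cd160 split separated fewer genes. Of 1496 tested outside the rule and Cd160, 5 passed edgeR (0.334%), all lower in Cd160-high cells. None passed as higher (0.0%), where 29 had an unadjusted p under 0.05, and DESeq2 called 1 higher and 2 lower. The 5 were Klf2, Ly6c2, Odc1, Cd28 and Tpm4, and each was lower in Cd160-high cells of all 4 libraries. Klf2, the factor that drives the genes of lymphocyte exit from tissue, was at 218.0 and 268.9 CPM in Cd160-high cells of stress libraries 1 and 2, against 493.1 and 748.6 CPM in Cd160-low cells. In control libraries 1 and 2 it was at 470.6 and 211.5 CPM, against 1033 and 670.3 CPM (log2 -1.39, SE 0.25, edgeR adjusted p = 0.00122).

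Ly6c2 was at 67.06 and 236.7 CPM in Cd160-high cells of stress libraries 1 and 2, against 326.2 and 428.8 CPM in Cd160-low cells (log2 -1.78, SE 0.321, edgeR adjusted p = 0.00273). Cd28, the costimulatory receptor, had a log2 fold change of -1.26 (edgeR adjusted p = 0.0385), Odc1 of -1.51 (0.0153) and Tpm4, a tropomyosin, of -1.56 (0.0404). Without doublets Klf2 (log2 -1.07, adjusted p = 0.074), Odc1 (0.057) and Cd28 (0.074) lost their calls, while Ly6c2 and Tpm4 passed. No gene passed edgeR without control library 2 (55 at an unadjusted p under 0.05) or within the stress libraries alone (149 at an unadjusted p under 0.05). Cd8a was higher in Cd160-high cells of 4 of 4 libraries without passing (log2 0.71, edgeR adjusted p = 0.306). Residency genes gave no call in 17 tested, 1 of them with an unadjusted p under 0.05.

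Set against the other CD8 alpha-beta T cells, those with no UMI of Ccl5, Gzma or Gzmb, the members carried a program of killing, NK receptors and residency. These classes are separated by marker UMIs of the same cells, so the counts describe them. Of 3921 genes tested with library as a block, 406 passed edgeR (10.4%), 227 higher (5.79%) and 179 lower (4.57%) in members. Without stress library 1 the count was 184, and without stress library 2 it was 214.

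Residency genes gave 15 higher calls of 20 tested, NK receptor genes 7 of 12, granule genes 8 of 13 and immediate early genes 13 of 22, and none of these 4 lists had a lower call. Xcl1, a chemokine that draws cross-presenting dendritic cells, was at 217.3 and 263.7 CPM in members of stress libraries 1 and 2, against 7.404 and 7.921 CPM in other CD8 cells, and at 313.5 and 179.7 CPM, against 15.7 and 3.504 CPM, in control libraries 1 and 2 (log2 5.21, SE 0.321, edgeR adjusted p = 3.11e-11). Cd160 differed by 4.01 (SE 0.311, adjusted p = 2.58e-09) and the activating receptor Klrk1, known as NKG2D, by 4.77 (SE 0.41, adjusted p = 1.35e-08). Gzmk had 190 UMIs in members and 0 in other CD8 cells, at least 96.6-fold higher (edgeR adjusted p = 3.91e-08). Tbx21, the transcription factor T-bet of effector cells, had 87 UMIs against 3, a ratio of 44.2 (95% counting interval 14.6 to 219). The Gzmk bound and the Tbx21 ratio pool the libraries, and control library 2 gave 383 of the 535 other CD8 cells. With library as a block the log2 fold change of Tbx21 was 4.655.

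Tcrg-C2, a constant gene of the gamma chain, had 248 UMIs in members against 2 in other CD8 cells. Pooled over the libraries that was a ratio of 189 (95% counting interval 51.8 to 1570), which also carries the unequal make-up of the classes. With library as a block the log2 fold change was 6.41 (edgeR adjusted p = 5.01e-09). Tcrg-C2 was at 207.7 and 215.4 CPM in members of stress libraries 1 and 2, against 188.1 and 92.66 CPM in members of control libraries 1 and 2. Reads of the gamma constant genes may be exchanged among near-identical copies. Variable segments of the alpha and beta chains were too sparse to describe receptor use: the 35 Trbv genes gave 4 and 13 UMIs in members of stress libraries 1 and 2, against 3 and 5 in control libraries 1 and 2.

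Lower in members were genes of naive and circulating cells. Of 19 circulation genes tested, 7 passed as lower and 1, Ly6c2, as higher. S1pr1, the receptor for exit from tissue into lymph, was at 50.15 and 52.34 CPM in members of stress libraries 1 and 2, against 303.6 and 229.7 CPM in other CD8 cells (log2 -2.13, SE 0.219, edgeR adjusted p = 2.42e-07), and was lower in 4 of 4 libraries. Igfbp4 (log2 -4.28) and Ifngr2, the second chain of the interferon gamma receptor (log2 -3.89), fell below other CD8 cells as well. Of 81 ribosomal protein genes, 67 passed as lower and none as higher.

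Against gamma-delta T cells, which also carry granzyme RNA, the members differed in T cell receptor accessory genes and in NK receptors. Gamma-delta cells were taken as T cells with a Trdc UMI and none of Cd8b1 or Cd4 (120, 98, 67 and 97 cells in stress 1, stress 2, control 1 and control 2). Marker UMIs of the same cells separate these classes as well, so genes that go with Trdc or Cd8b1 differ by construction. The counts therefore describe the classes. Of 4728 genes tested, 329 passed edgeR (6.96%), 192 higher (4.06%) and 137 lower (2.9%) in members. Cd6, a scavenger-type coreceptor of T cells, was at 273.7 and 251.4 CPM in members of stress libraries 1 and 2, against 13.68 and 15.98 CPM in gamma-delta cells, and at 204.1 and 178.4 CPM, against 21.34 and 21.89 CPM, in control libraries 1 and 2 (log2 3.67, SE 0.24, edgeR adjusted p = 1.51e-10). Trac was higher by 1.49 (adjusted p = 1.37e-07), Themis, a signalling protein of conventional T cell development, by 1.67 (3.59e-06), and Ctla4 by 1.42 (5.01e-07).

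Of 15 NK receptor genes, 5 passed as lower in members (Cd7, Cd160, Klrb1c, Klrd1 and Klrk1) and 1 as higher (Lilrb4a). Cd7 was at 301.8 and 649.4 CPM in members of stress libraries 1 and 2, against 1631 and 1789 CPM in gamma-delta cells (log2 -2.09, SE 0.16, edgeR adjusted p = 2.64e-08), and was lower in 4 of 4 libraries. Tcrg-C1, a constant gene of the gamma chain that goes along with the choice of cells by Trdc, had a log2 fold change of -4.61 (edgeR adjusted p = 8.57e-11). Residency genes were mixed, with 4 of 23 higher (Hopx, Itga4 and Itgb1 among them) and 6 lower (Itgae among them). Ribosomal protein genes were here the higher ones in members, with 59 of 81 passing as higher and none as lower.

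Against NK or ILC1 cells, taken as cells with 0 CD3 UMIs and at least 2 UMIs of Ncr1 and Klrb1c (44, 32, 55 and 58 cells), 473 of 2904 genes passed edgeR (16.3%), 221 higher (7.61%) and 252 lower (8.68%) in members. Here too the classes are separated by marker UMIs of the same cells, CD3 and NK receptor genes among them. T cell and NK receptor genes that go with those markers differ by construction, and the counts describe the classes. T cell receptor signalling genes gave 8 higher calls of 16 tested and no lower one. Cd8a had 873 UMIs in members against 1 in NK or ILC1 cells. Pooled over the libraries that was a ratio of 439 (95% counting interval 78.6 to 17400), and with library as a block the log2 fold change was 8.33. Cd5 had 209 UMIs against 0, at least 35.0-fold higher in the pooled sums. Itgae was at 277.5 and 271.5 CPM in members of stress libraries 1 and 2, against 0 and 11.37 CPM in NK or ILC1 cells (log2 3.73, SE 0.405, edgeR adjusted p = 8.28e-06).

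The innate cells carried more of the killing and NK receptor genes. Of 12 granule genes tested outside the rule, 5 passed as lower in members (Ctsw, Gzmc, Prf1, Serpinb6b and Serpinb9) and none as higher, and of 16 NK receptor genes 8 passed as lower and none as higher. Gzmc, granzyme C, had 3 UMIs in members against 646 in NK or ILC1 cells. Pooled over the libraries that was a ratio of 0.00234 (95% counting interval 0.00048 to 0.00686), and with library as a block the log2 fold change was -8.55. Xcl1 was at 255.1 and 312.0 CPM in members of stress libraries 1 and 2, against 1861 and 1938 CPM in NK or ILC1 cells (log2 -2.90, SE 0.176, edgeR adjusted p = 1.41e-09). Xcl1 in members thus lay above other CD8 cells and below NK or ILC1 cells in all 4 libraries. Klrk1 showed the same order, with a log2 fold change of -2.65 against NK or ILC1 cells (edgeR adjusted p = 4.99e-09).

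**Figure D4:**
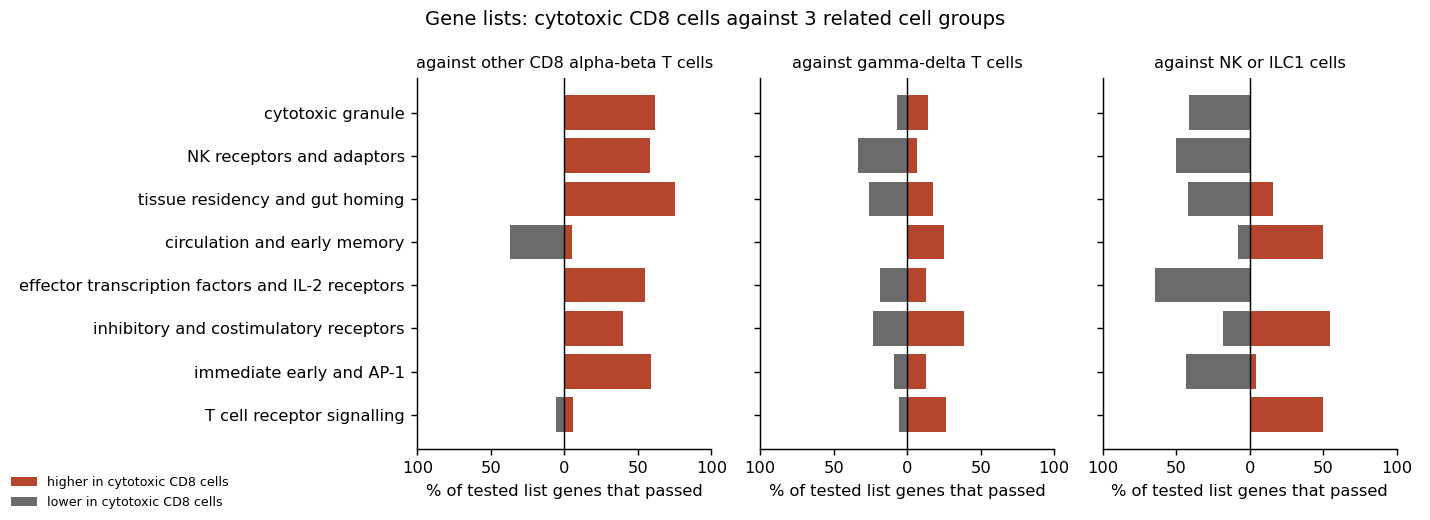
For 8 gene lists, the bars give the share of tested genes that passed edgeR as higher (right, red) or lower (left, grey) in members, against other CD8 alpha-beta T cells, gamma-delta T cells and NK or ILC1 cells. Granule and NK receptor genes are red in the left panel (8 of 13 and 7 of 12 genes) and grey in the right panel (5 of 12 and 8 of 16).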

How the data were processed

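Droplet single-cell libraries of sorted colon leukocytes, 2 from stressed and 2 from control mice, were analysed from deposited matrices of UMI counts per gene and barcode, which the authors made and left unscaled. Cell Ranger 5 or 5.0 and the mm10 build are named in the submitters' processing notes, and software 3.1.0 in the matrix headers. No source used here gives the annotation release. The files list 31053 genes. Coordinates are 1-based, from GENCODE vM21 on GRCm38, the assembly of mm10.

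Members and comparison classes were taken by UMI rules, with no clustering. Members and gene lists were chosen with earlier results of these data known. Raw UMIs were summed per library and class and tested with edgeR 4.0.16 (TMM, filterByExpr, robust quasi-likelihood F test, limma 3.58.1, R 4.3.3), with Benjamini-Hochberg adjustment over all genes tested, rule genes then being left out of counts. Classes of cells were compared with the library as a block, stress and control without a block. DESeq2 1.42.0 was an alternative. The tests were also run on counts simulated with a common dispersion and no library effect, and the outcome is not given here. The labels give no batch or date. Thinning drew 1000 UMIs per cell without replacement. Shares have exact Clopper-Pearson intervals at 95%, and all but the Gzma-high fraction were compared with exact permutation tests over libraries (scipy 1.17.1). A fold against a class with no UMIs sets 3 counts over that class as the floor. Such folds and the ratios of UMIs pool the libraries of each class, so they also carry differences between libraries.

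Doublets were scored per library with Scrublet in scanpy 1.11.5. Its automatic threshold marked under 0.5% of cells in all 4 libraries, so the expected share with the highest scores (0.8% per 1000 cells; 554, 136, 52 and 236 cells in stress 1, stress 2, control 1 and control 2) was left out as an alternative only.

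Genes were named by this rule: up to 12 per direction with the smallest p among those passing at a mean of 50 CPM or more, the 5 with the smallest p where fewer than 5 passed, and examples of each list by smallest p. Hes1 was named after its values were seen, as were list members beyond those examples. Alternatives covered normalisation, the low count filter, each library left out, the block, the mitochondrial maximum, doublets, the Cd8b1 and effector criteria and the thresholds of the fractions. Those without immunoglobulin-rich or MHC class II-rich members, with Gzma-low members only, and with the stress libraries only were added after seeing the data. Some results that these rules would name are not reported here.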

Additional observations from a re-analysis of the deposited data

How the results depend on the processing

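The shares of members and the Gzma-high fraction kept their direction under every alternative run. Without each library in turn, the difference in the share of kept cells ranged from 0.728 to 1.02 percentage points, that within CD8 cells from 4.34 to 50.8, the Gzma-high difference from 18.6 to 30.2 and the Cd160-high difference from 3.11 to 7.84. The Cd160-high difference turned to -0.962 at 2 or more UMIs and to -0.531 with cells thinned to 500. The log2 fold change of Cxcr4 under stress turned to 0.18 without control 2 (range -1.37 to 0.18 without each library).

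The number of genes called between stress and control (6) was 1 with DESeq2, 52 with no low count filter, 22 at a 5% mitochondrial maximum, 12 without doublets, 1 with an effector sum of at least 5, 2 without MHC class II-rich members and 12 to 300 without each library. Same-numbered deviations had a correlation of 0.00294 over 4833 genes. With 2 libraries a group this cannot show whether replicate numbers pair the samples. A replicate block gave 3 calls, Ccr7 among them. For Gzma-high cells (64) it was 28 with DESeq2, 105 with no filter, 196 in the stress libraries alone and 3 to 85 without each library. For Cd160-high cells (5) it was 3 with DESeq2, 27 with no filter, 2 without doublets, 0 in the stress libraries alone and 0 to 17 without each library. DESeq2 called 230 genes against other CD8 cells (406), 161 against gamma-delta cells (329) and 251 against NK or ILC1 cells (473), and the counts without each library were 184 to 406, 225 to 238 and 301 to 376. The causes were not tested. Of 1498 values of named genes under alternatives, 1325 kept direction and side, 116 lost the threshold, 56 newly passed and 1 turned. Of the 116 losses, 67 were in the Gzma-high comparison, beside 176 values kept. Another 20 were in the Cd160-high comparison, beside 67 kept, and 29 between stress and control, beside 390 kept. Comparisons with other cell classes lost none, but their named genes were picked by the smallest p in the main fit, so few losses could occur. Genes with too few UMIs to be tested under an alternative were not counted there. Genes that failed in the main fit and failed again count as kept.

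The comparisons rest on 2 libraries a group, with 25 members in control library 1 and 7 Gzma-high control cells, and the smallest difference that this depth can show was not measured.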
